A study of Homo sapiens with 24 samples.

Results

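HaCaT is an immortal, nontransformed line of human skin keratinocytes, the cells that build the epidermis. The gene expression of HaCaT cells that received no treatment was compared between 24 h and 2 h, using the 3 arrays labelled as untreated HaCaT at 24 h and the 3 labelled as untreated HaCaT at 2 h, 6 of the 24 arrays of the series. The probes considered were those with a detection p-value under 0.05 on all 3 arrays of either group. This left 18928 of 47323 probes, of which 14816 carried 1 gene symbol and stood for 11066 genes, while 4112 carried no single symbol and entered the counts of probes only.

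The cells of both groups had been grown in DMEM with serum, starved in medium with 1% FBS, and then left without treatment for 2 h or 24 h before total RNA was extracted. The series was built to study AMP-18, a stomach protein also known as gastrokine-1, and the other 18 arrays hold HaCaT given AMP-18 at 2 µg/ml and SCC-61, a head and neck squamous cell carcinoma line, with and without AMP-18. The untreated HaCaT groups served as its controls, so their difference is the change of that baseline over the interval. HaCaT is 1 cell line, and the labels do not state that the replicates were separate cultures. The p-values therefore cover only the spread among the samples at hand. The labels give no slide, scan or harvest batch, and time and any difference in handling between the 2 h and the 24 h samples cannot be told apart.

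Keratinocytes of the basal layer divide in contact with the basement membrane and make keratins 5 and 14. When they leave the cycle they switch to keratins 1 and 10 and then to the proteins of the cornified envelope. Growth factors in serum act through the EGF receptor, the ERK kinases and MYC to drive cell cycle entry and the making of ribosomes. In their absence the FOXO transcription factors enter the nucleus and switch on genes of arrest and of protein breakdown. Lipids in serum hold the SREBP transcription factors inactive in the endoplasmic reticulum, and their loss releases SREBP to switch on sterol and fatty acid synthesis.

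Each of the 6 arrays detected 19721 to 20705 probes, and every array had a median of 4.22 on the log2 scale of normalized intensity. Arrays of the same group correlated with r from 0.994 to 0.9967 over the tested probes, and arrays of different groups with r from 0.9321 to 0.9341, so no array stood nearer to the other group than to its own. Array weights estimated by limma were 1.19 to 1.73 for 5 arrays and 0.432 for replicate 3 at 24 h. All 12 keratinocyte markers that could be measured were detected on all 6 arrays. Of 13 fibroblast markers, 2 were detected in all 3 samples at 2 h and 5 at 24 h, and the log2 of their summed intensity was 9.14 to 9.19 at 2 h and 10.73 to 10.86 at 24 h. LUM, DCN and COL1A1 were the 3 fibroblast markers gained, while COL3A1, PDGFRA, PDGFRB, THY1, FAP and POSTN were detected on none of the 6 arrays. Of 10 endothelial markers, 0 were detected at 2 h and 2, VWF and CDH5, at 24 h, with summed levels of 7.04 to 7.16 and 8.0 to 8.12, and PECAM1, KDR, TEK and TIE1 were detected on none. Leukocyte and melanocyte markers numbered 2 of 13 and 1 of 8 at 2 h and 2 of 13 and 2 of 8 at 24 h. CD68, CD14 and MITF were detected on all 6 arrays, and PMEL on 1 array at 2 h and 3 at 24 h. LYZ and CORO1A were detected on 2 arrays each at 2 h and on 0 and 1 at 24 h. PTPRC, CD3D, TYR and MLANA were detected on no array. The summed levels of the leukocyte and melanocyte markers were 8.35 to 8.46 and 6.91 to 7.12 at 2 h, and 8.46 to 8.55 and 7.10 to 7.25 at 24 h. The part of other cell types in the changes reported here was not tested, and with RNA from whole cultures fewer cells of a type and less RNA per cell cannot be told apart.

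Most of the tested transcriptome differed between the times. Of 18928 probes, 12384 (65.4%) passed an adjusted p of 0.05, 6109 of them higher and 6275 lower at 24 h. The typical change was small, the median size of the log2 fold change being 0.60 among probes that passed. A change over 2-fold was found for 2731 probes, 1426 higher and 1305 lower. Without replicate 3 at 24 h, the array of lowest weight, these counts were 11771 in all and 2751 over 2-fold. Counted by gene, 36.2% of 11066 genes were higher and 34.6% lower, and 9.34% were higher and 7.18% lower by over 2-fold. These shares are the background against which each gene group below is read. The gene lists were chosen with earlier results of these data known, so their counts are a description and not independent evidence. A gene detected in 1 group only entered through that group. Such genes count in these shares and in the counts and medians of the gene groups. The median change over all genes was 0.02, and values are relative to the rest of the array, because the arrays had been scaled to a common distribution.

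The 15 largest rises among genes detected on all 6 arrays were each over 10-fold. ATP6V1B1, a subunit of the proton pump of acid-secreting and lysosomal membranes, read 5.56, 5.48 and 5.58 on the 3 arrays at 2 h and 10.77, 10.80 and 10.79 at 24 h, on the log2 scale. It rose by 5.25 ± 0.11 (log2 fold change ± SE), or 38.0-fold (adjusted p = 9.12e-26). Here and below the SE comes from the moderated variance of the fit over all 24 arrays. It is not the spread of the 3 arrays a group alone. TNFSF10, the death ligand TRAIL, read 6.21, 6.37 and 6.45 at 2 h and 11.30, 11.24 and 11.30 at 24 h. The groups lay far apart, and TNFSF10 rose by 4.94 ± 0.06 (adjusted p = 5.22e-30). PLA2G10, a secreted phospholipase, rose from 5.35, 5.40 and 5.19 to 10.24, 10.24 and 10.17, a change of 4.90 ± 0.09 (adjusted p = 2.15e-27). ALDOC, a glycolytic aldolase, rose from 6.86, 6.78 and 6.73 to 11.69, 11.68 and 11.59, a change of 4.86 ± 0.08 (adjusted p = 2.21e-27). In all 4, which were chosen for large rises without overlap, the lowest array at 24 h was above the highest at 2 h by more than 4.

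The other leading genes had varied roles. PIK3IP1, an inhibitor of PI3 kinase, rose by 4.45 ± 0.10. CDKN2B, which encodes the CDK4 and CDK6 inhibitor p15, read 5.89, 5.80 and 5.87 at 2 h and 10.29, 10.30 and 10.05 at 24 h and rose by 4.36 ± 0.09 (adjusted p = 1.08e-25). Its 3 probes rose by 0.89 to 4.36, so the size of its change depended on the probe. TP53INP1, a p53 target that takes part in autophagy, rose by 3.96 ± 0.11, and FBXO32, the FOXO-induced ubiquitin ligase atrogin-1, by 3.74 ± 0.07. The rest were AGR2, a disulfide isomerase of mucus-making cells (4.29 ± 0.09), CYP4F3, a fatty acid hydroxylase (4.28 ± 0.08), OLFM4, a secreted olfactomedin (4.16 ± 0.07), GPNMB, a membrane glycoprotein of lysosomes and melanosomes (4.01 ± 0.06), CAPNS2, a small calpain subunit (3.86 ± 0.12), SLC39A2, a zinc importer (3.86 ± 0.11), and DEFB1, the constitutive beta-defensin (3.61 ± 0.07). Second probes of AGR2, CYP4F3, OLFM4 and FBXO32 also rose, each by less.

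Among genes detected on all 6 arrays, those that fell most included secreted inhibitors, a chemokine and a matrix protein, and also enzymes and nucleolar proteins. PI3, the elastase inhibitor elafin that keratinocytes make under inflammation, read 9.30, 9.39 and 9.30 at 2 h and 5.71, 5.90 and 5.83 at 24 h. It fell by 3.52 ± 0.06, or 11.4-fold (adjusted p = 2.31e-27). CXCL8, the neutrophil chemokine interleukin 8, fell from 8.85, 8.85 and 8.88 to 5.38, 5.75 and 5.37, a log2 fold change of -3.36 ± 0.08 (adjusted p = 7.1e-24). SERPINE2, a thrombin and plasminogen activator inhibitor, fell by 3.15 ± 0.08, THBS1, the matrix protein thrombospondin 1, by 2.83 ± 0.07, and FST, the activin antagonist follistatin, by 2.76 ± 0.05. Among the enzymes, CTPS1, which makes CTP, read 9.39, 9.40 and 9.38 at 2 h and 6.22, 6.22 and 6.18 at 24 h, and fell by 3.18 ± 0.06 (adjusted p = 1.07e-26). SRM, the spermidine synthase, fell by 2.88 ± 0.09, PPRC1, a coactivator of mitochondrial biogenesis, by 2.74 ± 0.06, SLC43A3, a purine transporter, by 3.10 ± 0.09, GPAT3, which begins glycerolipid synthesis, by 3.06 ± 0.07, and AEN, a p53-induced nuclease, by 2.80 ± 0.10. RRS1, URB2, NOLC1 and LYAR, all nucleolar, made up the rest and are given with their group below.

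**Figure D1:**
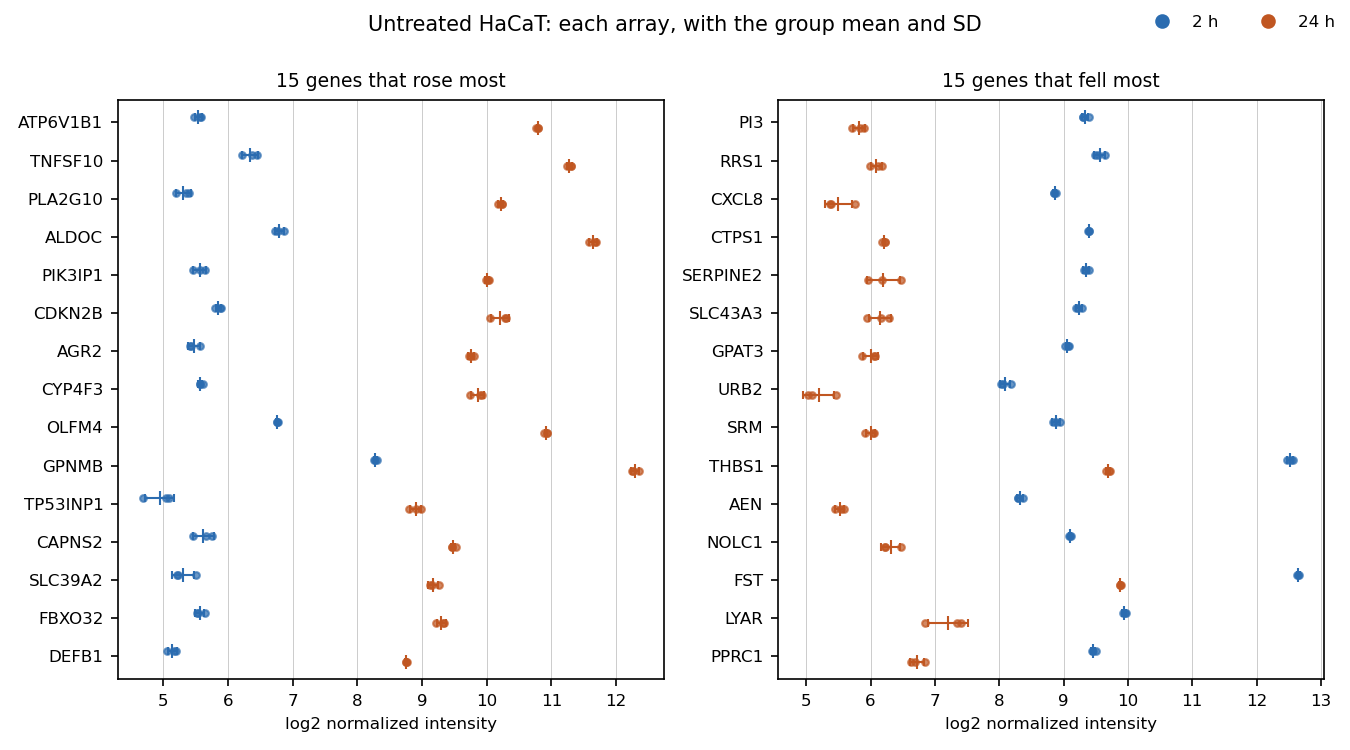
Log2 normalized intensity (horizontal axis) of the 15 largest risers and the 15 largest fallers among genes detected on all 6 arrays. Each dot is 1 array, 3 at 2 h in blue and 3 at 24 h in orange, with the group mean (tick) and SD (bar). The 30 genes were taken from those whose 2 groups of arrays do not overlap. Such a gap was found in 13350 of the 18928 tested probes. The changes shown run from ATP6V1B1 (5.25) to PI3 (-3.52).

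Some genes crossed the detection limit. On all 3 arrays of 24 h and none of 2 h, 586 probes were detected, and 266 showed the reverse. A fold change of such a gene is only a lower bound, set against the lowest signal of a detected probe on each array. CLIC3, a chloride channel family protein, was at least 27.7-fold higher at 24 h, with readings of 9.20, 9.23 and 9.15 against 3.83, 4.22 and 4.04 at 2 h. ALDH3B2, an aldehyde dehydrogenase, was at least 11-fold higher, SCNN1G, the gamma subunit of the epithelial sodium channel, at least 8.5-fold, SNCAIP, the synuclein partner synphilin-1, at least 8.29-fold, and LUM, a collagen-binding proteoglycan, at least 7.74-fold. In the other direction, CYP1A1, the detoxifying enzyme induced by the aryl hydrocarbon receptor, read 7.36, 7.59 and 7.50 at 2 h and 3.84, 4.30 and 4.10 at 24 h, where it was not detected, and was at least 8.65-fold lower. IL1A, the alarm cytokine interleukin 1 alpha, was at least 5.09-fold lower, SLC16A9, a monocarboxylate transporter family member, at least 3.51-fold, SLC7A11, the cystine importer, at least 3.49-fold, and TMEM201, a protein of the inner nuclear membrane, at least 3.17-fold. These 10 genes were chosen for that difference in detection, so their bounds are given as a description with no test.

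Genes that assemble ribosomes fell together. Of 37 ribosome biogenesis genes measured, 36 fell and 0 rose, 32 of them by over 2-fold, with a median log2 fold change of -1.53 against 0.02 over all genes. RRS1, an assembly factor of the large subunit, read 9.54, 9.65 and 9.49 at 2 h and 5.99, 6.11 and 6.17 at 24 h, and fell by 3.47 ± 0.07 (adjusted p = 1.5e-25). NOLC1, a nucleolar scaffold for snoRNPs, read 9.12, 9.10 and 9.09 at 2 h and 6.22, 6.23 and 6.48 at 24 h, and fell by 2.80 ± 0.07 (adjusted p = 1.38e-23). Both genes were named from those whose 2 groups did not overlap, as was the case for 13350 of the 18928 tested probes. URB2 fell by 2.90 ± 0.09, LYAR by 2.75 ± 0.11, NOP16 by 2.71 ± 0.07, and BOP1, which processes the precursor of the large rRNAs, by 2.68 ± 0.07. The proteins of the finished ribosome had no common direction. Of 67 cytosolic ribosomal protein genes, 22 rose, 13 fell and 32 did not pass, with a median of 0.04. The largest falls among them were those of RPL29 (-2.42), RPS7 (-2.26) and RPL34 (-1.46). These 3 are uncertain, since ribosomal protein genes have many near-identical processed copies that a probe may also read, and a second probe of RPL34 rose by 0.45.

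Other parts of the protein-making and folding machinery were also lower. Of 18 cytosolic tRNA synthetases, which load amino acids onto tRNA, 15 fell and 1 rose, with a median of -0.82. MARS1, the methionyl-tRNA synthetase, fell from 8.91, 8.86 and 8.89 to 6.92, 6.79 and 7.09, a change of -1.95 ± 0.07 (adjusted p = 7.83e-20), VARS1 by 1.68 ± 0.07, and FARSA by 1.48 ± 0.10. A further list held ATF4, the transcription factor of the amino acid response, with its targets and amino acid transporters. Of its 27 genes measured, 17 fell and 7 rose. ASNS, the asparagine synthetase, read 10.11, 10.01 and 9.94 at 2 h and 8.11, 8.19 and 8.26 at 24 h, and fell by 1.83 ± 0.06 (adjusted p = 7.88e-21). The exceptions included DDIT4, an inhibitor of mTORC1 that hypoxia and glucocorticoids also induce, which rose by 2.67 ± 0.06 from 9.48, 9.37 and 9.30 to 11.98, 12.06 and 12.12. The others that rose were NUPR1 (1.42), SLC38A2 (0.89), DDIT3 (0.77), PHGDH (0.72), ATF4 itself (0.27) and TRIB3 (0.21). Members that fell also included the secreted glycoprotein STC2, by 1.62 ± 0.07. MTHFD2, a mitochondrial folate enzyme, fell by 1.62 ± 0.08 and PYCR1, a proline synthetic enzyme, by 1.66 ± 0.12, although a second PYCR1 probe gave -0.04.

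Chaperones fell in the endoplasmic reticulum and in the cytosol. Of 18 genes of endoplasmic reticulum folding, 16 fell and 0 rose, 5 of them by over 2-fold, with a median of -0.65. HYOU1 fell by 1.82 ± 0.09 and SDF2L1 by 1.78 ± 0.08, both of which assist the luminal chaperone encoded by HSPA5, which itself fell by 0.66 ± 0.06. Of 17 heat shock protein genes, 11 fell and 3 rose, with a median of -0.95. HSPA8, the constitutive HSP70 of the cytosol, read 12.99, 12.96 and 12.96 at 2 h and 10.52, 10.48 and 10.51 at 24 h, 3 tight values at each time, and fell by 2.47 ± 0.04 (adjusted p = 3.83e-27). HSPH1 fell by 1.63 ± 0.05 and HSP90AB1, the constitutive cytosolic HSP90, by 1.28 ± 0.06. Of 27 proteasome subunits, 22 fell and 1 rose, mostly by little, with a median of -0.39 and 1 member, PSMD12 (-1.18 ± 0.06), past 2-fold.

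Most ERK pathway outputs measured were lower at 24 h, with exceptions. Of 20 output and feedback genes of the ERK pathway, 17 fell and 1 rose, 8 of them falling by over 2-fold, with a median of -0.70. The 1 that rose was EPHA4, by 1.17 ± 0.08. FOSL1, the AP-1 subunit FRA-1, read 8.28, 8.32 and 8.30 at 2 h and 4.31, 4.82 and 4.91 at 24 h, when it was detected on 2 of 3 arrays, and fell by 3.62 ± 0.10 (adjusted p = 1.33e-22). PLAUR, the urokinase receptor, fell by 2.39 ± 0.08, PHLDA1 by 1.82 ± 0.05, ETV4 by 1.59 ± 0.15, and ETV5 by 1.58 ± 0.11, while DUSP4, a phosphatase that switches ERK off, was detected at 2 h only and was at least 2.34-fold lower. A second probe of PHLDA1 gave only -0.19. In the EGF receptor family 5 of 8 genes fell and 3 rose, and the 4 ligands measured were among those that fell. HBEGF read 7.61, 7.66 and 7.63 at 2 h and 6.01, 5.87 and 5.87 at 24 h and fell by 1.72 ± 0.06 (adjusted p = 6.22e-20), TGFA fell by 1.77 ± 0.06, NRG1, a ligand of ERBB3 and ERBB4, by 1.83 ± 0.10, and EREG, epiregulin, detected on 1 of 3 arrays at 24 h, by 0.66 ± 0.17. The 3 receptors rose, ERBB3 by 2.01 ± 0.15, ERBB2 by 0.80 ± 0.05 and EGFR by 0.16 ± 0.06, with probes of ERBB3 from 0.16 to 2.01 and of EGFR from -0.32 to 1.04. MYC, which drives ribosome and nucleotide synthesis, read 10.52, 10.61 and 10.56 at 2 h and 8.92, 8.82 and 8.67 at 24 h, 2 groups well apart, and fell by 1.76 ± 0.07 (adjusted p = 4.74e-19).

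The immediate-early genes as a group had no common direction, with 9 of 23 higher and 6 lower. IER3 (-2.0 ± 0.07), CCN1 (-1.58 ± 0.08) and JUN (-1.43 ± 0.08) fell, whereas BHLHE40, a clock-linked repressor, rose by 2.59 ± 0.06 and JUND, the AP-1 subunit that rises in quiescent cells, by 1.33 ± 0.04. The other members that rose were ATF3 (1.23), FOS (0.86), JUNB (0.58), KLF6 (0.51), MCL1 (0.38), EGR1 (0.37) and IER5 (0.21). Beside MYC, KLF4 (-0.78) and CCN2 (-0.77) also fell. Of 21 NF-κB targets and cytokines, 10 fell and 6 rose, 5 of these falls and 1 of these rises being over 2-fold. IL1B, interleukin 1 beta, read 8.03, 8.04 and 8.05 at 2 h and 4.36, 4.45 and 4.33 at 24 h, when 1 array of 3 detected it, and fell by 3.66 ± 0.08 (adjusted p = 5.11e-25). TNFAIP3, the NF-κB inhibitor A20, fell by 1.88 ± 0.17, and RELB, an NF-κB subunit, was not detected at 24 h and was at least 2.52-fold lower. TNFAIP2 rose by 1.81 ± 0.12, from 2 of 3 arrays detected at 2 h.

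**Figure D2:**
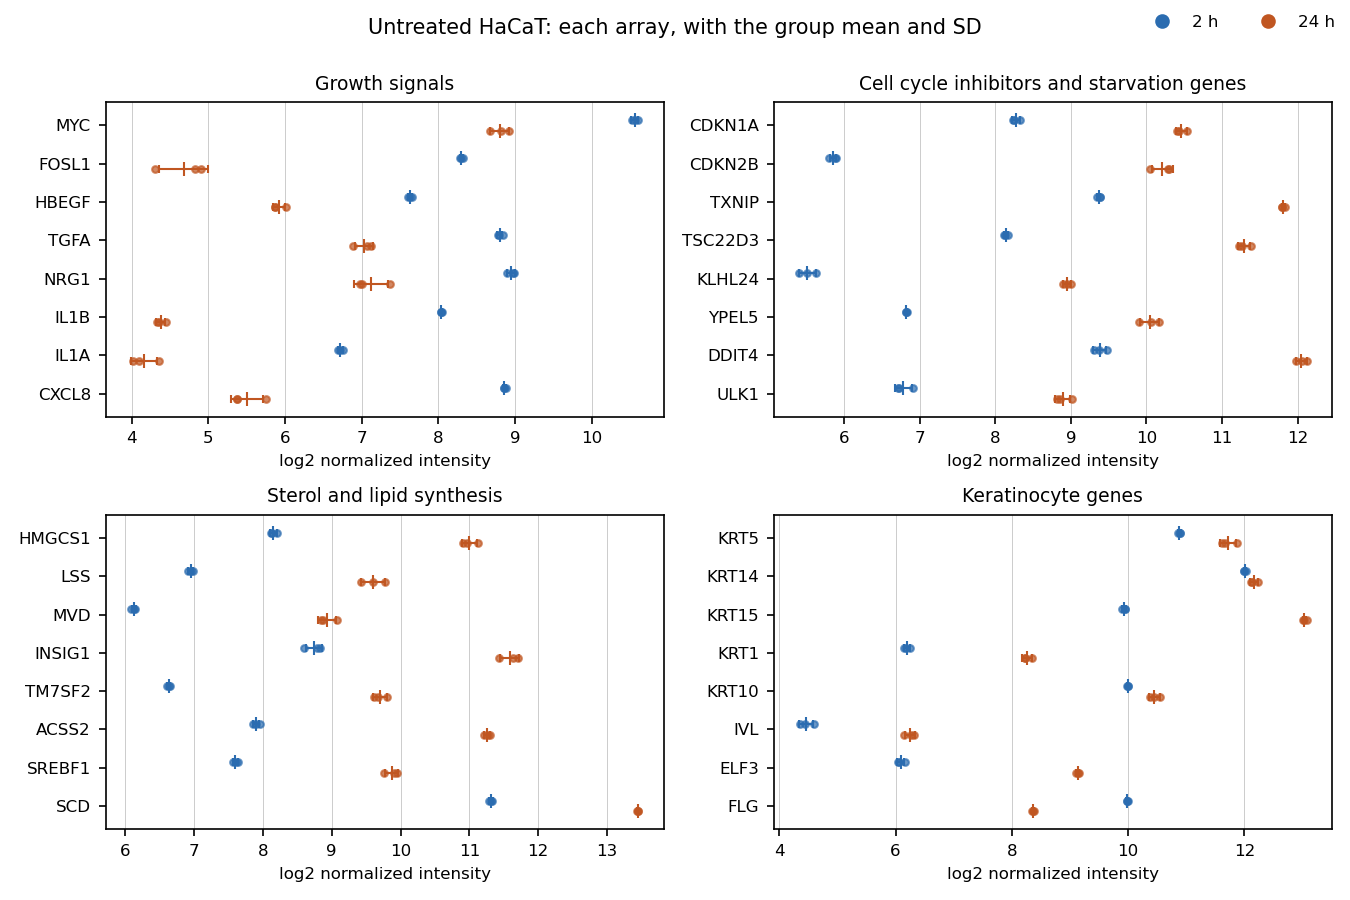
Log2 normalized intensity (horizontal axes) of 32 genes in 4 groups, growth signals, cell cycle inhibitors and starvation genes, sterol and lipid synthesis, and keratinocyte genes. Each dot is 1 array, 2 h in blue and 24 h in orange, with the group mean (tick) and SD (bar). The genes shown were picked from those named in the text, most of them for a large change. Their shared directions follow from that choice and do not stand for their lists. The 8 growth signals, the cytokines IL1A, IL1B and CXCL8 included, are lower at 24 h, and the 16 genes of the next groups are higher. FLG (-1.63) is lower among the keratinocyte genes shown, and 5 of 20 basal and 8 of 20 cornified envelope genes fell.

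The cell cycle genes split by phase. Of 42 genes of DNA replication and the G1/S transition, 39 fell and 1 rose, 20 of them falling by over 2-fold, with a median of -0.92. RRM2, the regulated subunit of ribonucleotide reductase, read 8.38, 8.58 and 8.49 at 2 h and 6.58, 6.58 and 6.63 at 24 h, and fell by 1.88 ± 0.12 (adjusted p = 2.88e-14). UHRF1, which keeps DNA methylation through replication, read 10.52, 10.54 and 10.43 at 2 h and 8.74, 8.67 and 8.90 at 24 h, and fell by 1.73 ± 0.08 (adjusted p = 2.17e-17). MCM10 fell by 1.72 ± 0.08, CDC45, part of the replicative helicase, by 1.59 ± 0.05, GINS2 by 1.46 ± 0.06, and CCNE1, cyclin E1, by 1.46 ± 0.12. Of 46 genes of G2/M and mitosis, by contrast, 15 rose, 13 fell and 18 did not pass, with a median of 0.00, and 1 changed by over 2-fold. That gene was CDC25C, the phosphatase that starts mitosis, which rose from 6.34, 6.21 and 6.43 to 7.63, 7.57 and 7.77, a change of 1.33 ± 0.09 (adjusted p = 7.35e-14). HMMR, NEK2 and NUSAP1 rose by 0.69 to 0.73, CDC20 fell by 0.85 ± 0.05 and MAD2L1 by 0.93 ± 0.10. MKI67, the proliferation marker, fell by 0.37 ± 0.10 (adjusted p = 0.00143) and lost the call in 1 of the alternative analyses. CDK1 and CCNB1, the kinase and cyclin of mitotic entry, gave -0.02 ± 0.06 and 0.01 ± 0.07, and neither passed.

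Of 8 inhibitors of cyclin-dependent kinases and D-type cyclins, 6 rose and 2 fell, and all 5 inhibitors measured were among those that rose. CDKN1A, which encodes p21, read 8.25, 8.23 and 8.32 at 2 h and 10.43, 10.41 and 10.54 at 24 h, and rose by 2.19 ± 0.07 (adjusted p = 3.33e-21). CDKN1B, which encodes p27, rose by 0.75 ± 0.09 and CDKN2A by 1.26 ± 0.10. The D-type cyclins, which carry growth signals into the cycle, divided, CCND1 falling by 0.89 ± 0.05 (adjusted p = 2.65e-15) and CCND3 by 0.98 ± 0.05, while CCND2 rose by 0.15 ± 0.05. The p53 targets divided, 12 of 19 rising and 5 falling. DDB2 (1.15 ± 0.10) and SESN1 (1.0 ± 0.11) rose beside CDKN1A and TP53INP1, and TIGAR (-1.30 ± 0.08) and AEN fell.

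Promoters of both groups were read because the groups moved differently. The sequences are RefSeq promoters of GRCh38.p14, 250 bases before to 50 after the start of each gene, and 38 of the 42 G1/S genes and 39 of the 46 G2/M genes had one. E2F sites were searched as TTTCGCGC, TTTGGCGC and TTTCCCGC, and the cell cycle homology region (CHR) as TTTGAA and TTTAAA, on both strands. An E2F match was found in 20 of 38 G1/S promoters (52.6%) and 3 of 39 G2/M promoters (7.69%), against 2.79% of all 27305 promoters in the table and 4.78% of those of tested genes. A CHR match was found in 4 of 38 G1/S promoters (10.5%) and 33 of 39 G2/M promoters (84.6%), against 24.3% of all and 15.9% of those of tested genes. Among genes lower by over 2-fold, 44 of 605 promoters (7.27%) held an E2F match, and among genes higher by over 2-fold 22 of 827 (2.66%). For CHR these were 85 of 605 (14%) and 128 of 827 (15.5%), near the share of tested genes in both directions. A match describes the letters in this window and not a bound site. In all 7 motifs were searched in the promoters of 6 gene lists. CCAAT was found in 21 of 38 G1/S promoters (55.3%) and 31 of 39 G2/M promoters (79.5%). It was also found in 14 of 17 promoters of cholesterol genes (82.4%), against 35.7% of all and 37.4% of those of tested genes. The sterol response core CACCCCAC was found in 1 of 17 promoters of cholesterol genes (5.88%), against 2.72% of all and 2.4% of tested genes. The AP-1 motifs TGAGTCA and TGACTCA were in 1 of 14 promoters of ERK output genes (7.14%), against 4.92% of all and 3.11% of tested genes. TATAAA was in 0% to 11.8% of the promoters of each list, against 12% of all and 5.79% of tested genes. MCM6, a helicase subunit, fell by 1.42 ± 0.05, from 10.70, 10.65 and 10.72 to 9.33, 9.27 and 9.21. KIF20A, a mitotic kinesin, read 9.53, 9.57 and 9.61 and 10.17, 10.18 and 10.15 and rose by 0.60 ± 0.05, and CCNB2, cyclin B2, rose by 0.38 ± 0.05. These 3 genes were chosen after their values were seen. In the lines below capitals mark the E2F matches of MCM6 and UHRF1, with those of MCM6 in 2 overlapping pairs, and the CHR matches of KIF20A and CCNB2.
MCM6, chr2:135876394-135876693, minus strand, GRCh38.p14: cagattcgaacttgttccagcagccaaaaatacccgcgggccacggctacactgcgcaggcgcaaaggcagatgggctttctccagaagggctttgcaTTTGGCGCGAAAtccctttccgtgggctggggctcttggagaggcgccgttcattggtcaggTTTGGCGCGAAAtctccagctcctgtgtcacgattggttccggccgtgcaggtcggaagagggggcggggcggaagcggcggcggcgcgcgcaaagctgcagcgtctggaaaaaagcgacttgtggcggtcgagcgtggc
UHRF1, chr19:4909251-4909550, plus strand, GRCh38.p14: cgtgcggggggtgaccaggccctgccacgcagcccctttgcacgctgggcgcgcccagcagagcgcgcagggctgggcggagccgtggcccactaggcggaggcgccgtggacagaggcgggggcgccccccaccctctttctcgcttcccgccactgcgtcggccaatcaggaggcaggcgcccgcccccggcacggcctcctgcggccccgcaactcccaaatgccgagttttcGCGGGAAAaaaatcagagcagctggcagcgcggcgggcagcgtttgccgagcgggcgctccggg
KIF20A, chr5:138178862-138179161, plus strand, GRCh38.p14: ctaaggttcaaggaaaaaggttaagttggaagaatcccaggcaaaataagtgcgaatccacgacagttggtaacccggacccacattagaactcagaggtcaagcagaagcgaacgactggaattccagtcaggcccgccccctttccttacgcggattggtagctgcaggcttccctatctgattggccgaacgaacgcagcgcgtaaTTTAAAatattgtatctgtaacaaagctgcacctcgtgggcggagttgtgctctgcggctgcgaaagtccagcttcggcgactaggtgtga
CCNB2, chr15:59104896-59105195, plus strand, GRCh38.p14: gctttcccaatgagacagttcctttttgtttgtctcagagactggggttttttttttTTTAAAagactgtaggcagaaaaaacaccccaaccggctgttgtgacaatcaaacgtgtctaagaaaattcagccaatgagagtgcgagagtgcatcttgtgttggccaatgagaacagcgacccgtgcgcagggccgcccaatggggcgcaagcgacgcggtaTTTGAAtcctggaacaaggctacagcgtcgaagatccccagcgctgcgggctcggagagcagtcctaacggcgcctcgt

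Genes that cells switch on when serum or insulin-like signals are withdrawn rose. Of 23 such genes, among them the targets of FOXO, 20 rose and 1 fell, 14 of them rising by over 2-fold, with a median of 1.66. KLHL24, an adaptor of a ubiquitin ligase that acts on keratin 14, read 5.51, 5.63 and 5.40 at 2 h and 8.90, 9.0 and 8.95 at 24 h, and rose by 3.43 ± 0.09 (adjusted p = 4.63e-23). YPEL5 read 6.83, 6.82 and 6.81 at 2 h and 10.16, 10.06 and 9.90 at 24 h, and rose by 3.22 ± 0.08 (adjusted p = 2.06e-24). FOXO4 itself rose by 2.87 ± 0.10, and YPEL3 by 3.31 ± 0.15, from 2 of 3 arrays detected at 2 h. TXNIP, the thioredoxin inhibitor that also limits glucose uptake, rose from 9.39, 9.35 and 9.38 to 11.80, 11.84 and 11.80, a change of 2.44 ± 0.05 (adjusted p = 5.41e-26). TSC22D3, the leucine zipper protein GILZ that glucocorticoids and FOXO induce, rose by 3.15 ± 0.06, with 4 probes from 1.42 to 3.97. The glucocorticoid-induced genes gave 6 higher and 1 lower of 12, TSC22D3 included.

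Sterol synthesis was the gene group with the highest median of all those examined with more than 2 members measured, apart from the fibroblast markers given above. Of 19 genes of cholesterol synthesis and uptake, 17 rose and 0 fell, 16 of them rising by over 2-fold, against 9.34% of all genes, with a median of 1.96. HMGCS1, which makes the precursor of mevalonate, read 8.21, 8.12 and 8.13 at 2 h and 10.91, 10.97 and 11.13 at 24 h, and rose by 2.85 ± 0.06 (adjusted p = 1.05e-25). MVD, a later step to the isoprene unit, read 6.13, 6.14 and 6.08 at 2 h and 8.84, 8.88 and 9.08 at 24 h, and rose by 2.82 ± 0.11 (adjusted p = 4.06e-19). LSS, which closes the sterol rings, rose by 2.65 ± 0.09, MSMO1 by 2.60 ± 0.06, TM7SF2, a sterol reductase, by 3.07 ± 0.08, and INSIG1, which retains SREBP in the endoplasmic reticulum and is its target, by 2.85 ± 0.09. Probes of LSS ranged from 0.80 to 2.65 and those of MSMO1 from 0.12 to 2.60. Fatty acid synthesis rose too, in 11 of 15 genes with 3 lower and a median of 1.02. ACSS2, which makes acetyl-CoA from acetate, read 7.90, 7.95 and 7.86 at 2 h and 11.27, 11.21 and 11.30 at 24 h, and rose by 3.36 ± 0.06 (adjusted p = 1.36e-27). LPIN1 rose by 2.52 ± 0.07, SREBF1, which encodes SREBP-1, by 2.27 ± 0.07, FADS1 by 2.19 ± 0.07, SCD, the stearoyl-CoA desaturase, by 2.14 ± 0.04, and FASN, the fatty acid synthase, by 1.35 ± 0.07. Genes of fatty acid oxidation moved less, 10 of 16 higher and 3 lower with a median of 0.45, and FABP5, an epidermal fatty acid carrier, fell by 1.62 ± 0.07.

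Lysosome and autophagy genes were mostly higher. Of 23, 21 rose and 1 fell, with a median of 0.87. GABARAPL1, which coats autophagosomes, read 6.99, 7.0 and 6.87 at 2 h and 9.41, 9.25 and 9.47 at 24 h, and rose by 2.42 ± 0.07 (adjusted p = 9.7e-22). ULK1, the kinase that starts autophagy, rose by 2.11 ± 0.07, NEU1, the lysosomal sialidase, by 2.10 ± 0.07, and NPC1, which exports cholesterol from lysosomes, by 1.23 ± 0.06. WIPI1 and the cathepsin gene CTSF were detected at 24 h only and were at least 2.34-fold and at least 3.07-fold higher.

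The E-box CACGTG, a palindrome that is read by MYC and by the lysosomal regulator TFEB, was found in promoters of genes that moved in both directions. It was present in 10 of 30 ribosome biogenesis promoters (33.3%) and in 7 of 17 lysosome and autophagy promoters (41.2%), against 7.43% of all promoters and 10.4% of those of tested genes. Among genes lower by over 2-fold, 111 of 605 promoters (18.3%) held it, and among genes higher by over 2-fold 69 of 827 (8.34%). NOP2, an rRNA methyltransferase that fell by 2.37 ± 0.06 and was chosen after its value was seen, and NEU1 are shown as 1 example of each direction, with the E-box in capitals.
NOP2, chr12:6568242-6568541, minus strand, GRCh38.p14: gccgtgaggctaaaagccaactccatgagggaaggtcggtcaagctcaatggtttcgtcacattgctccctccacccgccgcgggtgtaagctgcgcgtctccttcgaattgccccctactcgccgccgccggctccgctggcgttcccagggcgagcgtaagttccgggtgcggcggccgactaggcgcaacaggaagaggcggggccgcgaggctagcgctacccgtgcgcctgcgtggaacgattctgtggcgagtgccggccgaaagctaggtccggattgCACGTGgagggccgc
NEU1, chr6:31862772-31863071, minus strand, GRCh38.p14: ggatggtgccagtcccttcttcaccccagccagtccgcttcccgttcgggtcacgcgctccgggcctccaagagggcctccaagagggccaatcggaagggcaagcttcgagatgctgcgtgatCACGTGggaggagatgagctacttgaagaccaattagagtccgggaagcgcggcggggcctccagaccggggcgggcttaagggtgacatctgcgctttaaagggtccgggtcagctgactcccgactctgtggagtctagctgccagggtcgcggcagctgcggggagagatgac

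Hypoxia-inducible genes were raised in 14 of 19 cases and lowered in 3, with a median of 1.17. BNIP3L and BNIP3, which mark mitochondria for removal, rose by 2.15 ± 0.09 and 1.86 ± 0.08, NDRG1 by 2.08 ± 0.08, and PFKFB4, a regulator of glycolytic flux, by 1.73 ± 0.07. HK2, the inducible hexokinase, went the other way, from 7.50, 7.46 and 7.49 to 5.65, 5.81 and 5.64, and fell by 1.78 ± 0.07 (adjusted p = 1.2e-18), with a second probe at -0.40. ERO1A (-0.67) and VEGFA (-0.56) also fell, and the glucose transporter genes SLC2A1 (0.08) and SLC2A3 (0.28) did not pass. Glycolysis as a whole gave 7 higher and 5 lower of 17, with a median of -0.02. The respiratory chain and ATP synthase gave 15 higher and 19 lower of 45, with a median of -0.05 and CYCS, cytochrome c, as the 1 gene past 2-fold (-1.19 ± 0.09).

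Smaller metabolic and signalling groups held some large changes. Of 11 retinoid-regulated genes, 7 rose and 2 fell, with a median of 1.49. The 7 include STRA6, which entered through the 24 h group alone. CYP26A1, which degrades retinoic acid, rose by 1.87 ± 0.11, CRABP2, which carries it, by 1.72 ± 0.06, DHRS3, a retinal reductase, by 1.60 ± 0.06, and PLAAT4 by 2.24 ± 0.07, while STRA6, detected at 24 h only, was at least 2.75-fold higher. Of 12 circadian clock genes, 7 rose and 2 fell. DBP, a clock output factor, rose by 1.76 ± 0.13 and BMAL1 by 1.17 ± 0.10, and CLOCK, the partner of BMAL1, fell by 0.94 ± 0.09, with its second probe at -0.05. The targets of the aryl hydrocarbon receptor divided. CYP1B1 fell beside CYP1A1, by 1.81 ± 0.06, and NQO1 by 0.99 ± 0.05, whereas ALDH3A1 rose from 6.39, 6.31 and 6.13 to 8.68, 8.70 and 8.82, a change of 2.45 ± 0.09 (adjusted p = 1.9e-19). Of 8 metallothionein and zinc transport genes, 6 rose and 2 fell. MT1F, a metal-binding protein, rose by 2.33 ± 0.07, and the zinc exporter SLC30A1 fell by 1.45 ± 0.07. The metallothionein genes are near-identical copies of one another, and a probe may read more than 1 of them.

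Of 20 basal genes, 11 rose and 5 fell, with a median of 0.14. The 5 that fell were PLEC (-0.99), CD44 (-0.55), ITGB1 (-0.37), CAV1 (-0.34) and BNC1 (-0.19). KRT15, a keratin of resting basal and hair follicle stem cells, read 9.89, 9.95 and 9.94 at 2 h and 13.01, 13.07 and 13.02 at 24 h, and rose by 3.11 ± 0.05 (adjusted p = 1.11e-28). KRT5 rose by 0.84 ± 0.06. KRT14, its partner, read 12.02, 12 and 12 at 2 h and 12.11, 12.13 and 12.24 at 24 h, a rise of only 0.15 ± 0.06 (adjusted p = 0.0203) that did not pass in 4 of the alternative analyses. Of 16 genes of spinous differentiation, 12 rose and 3 fell, with a median of 0.72. The 3 that fell were DMKN (-0.76), OVOL1 (-0.39) and GRHL3 (-0.39). KRT1 read 6.14, 6.18 and 6.24 at 2 h and 8.22, 8.22 and 8.35 at 24 h, and rose by 2.07 ± 0.15 (adjusted p = 9.01e-13), and its partner KRT10 rose by 0.46 ± 0.07. ELF3, an epithelial transcription factor, rose by 3.04 ± 0.06, KRT4 and KRT13, the keratin pair of moist squamous epithelia, by 2.0 ± 0.11 and 1.36 ± 0.05, NOTCH3 by 1.49 ± 0.10, and the desmosome protein gene PKP1 by 1.40 ± 0.08.

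The cornified envelope genes had no common direction, 10 of 20 rising and 8 falling. IVL, which encodes involucrin, read 4.45, 4.59 and 4.35 at 2 h, when 2 of 3 arrays detected it, and 6.15, 6.27 and 6.32 at 24 h, and rose by 1.79 ± 0.13 (adjusted p = 3.07e-13). SCEL rose by 2.54 ± 0.07, CNFN by 2.18 ± 0.12 and TGM1, the transglutaminase that crosslinks the envelope, by 1.95 ± 0.12. FLG, which encodes profilaggrin of the granular layer, fell from 9.98, 9.99 and 9.98 to 8.34, 8.36 and 8.38, a change of -1.63 ± 0.10 (adjusted p = 2.25e-14), and SPRR3 was detected at 2 h only and was at least 1.68-fold lower. Every other SPRR gene measured also fell, namely SPRR2E (-1.27), SPRR2D (-0.97), SPRR2A (-0.925), SPRR1B (-0.60) and SPRR1A (-0.31), as did ALOXE3 (-0.59). Among keratins of stressed and simple epithelia, KRT19 rose by 1.64 ± 0.09 and KRT18 fell by 1.05 ± 0.15, while a second KRT18 probe gave -0.27 and did not pass.

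Cell contacts and the surroundings of the cell changed gene by gene. In the tight junction and adherens list 7 of 18 rose and 5 fell, led by CLDN8, a claudin, which rose from 7.65, 7.76 and 7.80 to 9.89, 9.88 and 9.86, a change of 2.14 ± 0.07 (adjusted p = 2.43e-21), and CDH2, N-cadherin, which fell from 10.87, 10.77 and 10.84 to 9.14, 9.22 and 9.09, a change of -1.68 ± 0.06 (adjusted p = 2.64e-20). CLDN1 rose by 0.68 ± 0.05 and EPCAM fell by 0.71 ± 0.06. Of 24 integrin and matrix genes, 13 rose and 9 fell. TNC, tenascin C, fell by 1.39 ± 0.08 and COL4A1, a basement membrane collagen, by 1.16 ± 0.07, while the prolyl hydroxylases P4HA1 and P4HA2, which modify collagen, rose by 1.64 ± 0.06 and 1.72 ± 0.07. Of 20 metalloproteinase and plasminogen genes, 10 rose and 6 fell, the falls of PLAUR and SERPINE2 given above among them. MMP13, collagenase 3, rose from 5.14, 5.12 and 4.90 to 8.44, 8.40 and 8.31, a change of 3.33 ± 0.11 (adjusted p = 2.85e-21), and MMP10, stromelysin 2, rose by 2.29 ± 0.10, from 2 of 3 arrays detected at 2 h. Of 19 TGF-β and BMP genes, 11 rose and 4 fell. TGFB2, a TGF-β ligand, fell by 1.13 ± 0.13 beside FST. The inhibitors of differentiation ID1, ID2 and ID3, direct targets of BMP, rose by 2.12, 2.32 and 2.56, and the BMP feedback inhibitor SMAD6 by 1.76 ± 0.08. ID3 read 9.34, 9.42 and 9.33 at 2 h and 11.88, 11.94 and 11.96 at 24 h (adjusted p = 1.72e-26).

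Immune genes rose on the interferon side. Of 36 interferon-stimulated genes, 26 rose and 1 fell, 15 of them rising by over 2-fold, with a median of 0.71. GBP2, a guanylate-binding protein, read 5.48, 5.35 and 5.62 at 2 h and 8.77, 8.78 and 8.67 at 24 h, and rose by 3.26 ± 0.07 (adjusted p = 5.59e-25). IFITM1 rose by 1.94 ± 0.06, IRF9, a subunit of the interferon-activated factor ISGF3, by 1.76 ± 0.06, and SAMD9 by 1.66 ± 0.06. In antigen presentation 11 of 15 rose and 2 fell, TAPBP, which loads class I molecules, by 1.17 ± 0.08, with TAP2, a subunit of the peptide transporter, falling by 1.33 ± 0.06. Antimicrobial genes went both ways. LCN2, an iron-trapping lipocalin, rose by 1.30 ± 0.06 and RNASE7 by 1.19 ± 0.08 beside DEFB1, whereas S100A9 fell from 7.83, 7.85 and 7.95 to 5.87, 5.92 and 6.0, a change of -1.95 ± 0.06 (adjusted p = 1.32e-21), and its partner S100A8 fell by 1.70 ± 0.09.

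**Figure D3:**
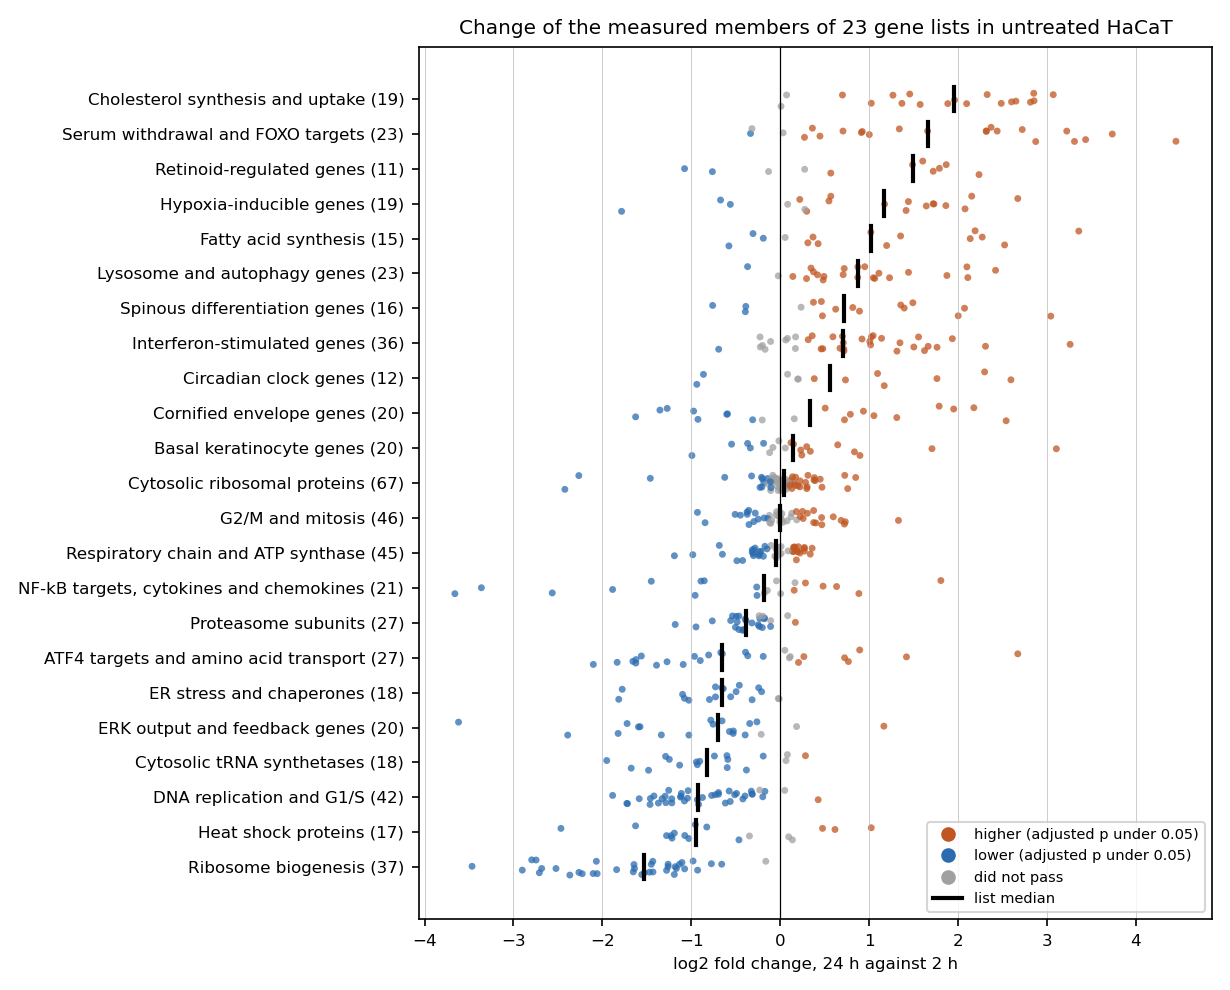
Log2 fold change between 24 h and 2 h (horizontal axis) of the measured members of 23 gene lists in untreated HaCaT, with the number of members in brackets. Each dot is 1 gene, orange if higher and blue if lower at an adjusted p under 0.05 and grey otherwise, and the black line is the list median. The medians run from -1.53 for ribosome biogenesis to 1.96 for cholesterol synthesis and uptake.

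Genes often used as references were not all level. GAPDH read 12.76, 12.75 and 12.75 at 2 h and 12.88, 12.79 and 12.90 at 24 h, a difference of 0.10 ± 0.05 that did not pass (adjusted p = 0.0602). ACTB, beta-actin, fell from 13.59, 13.66 and 13.56 to 12.70, 12.73 and 12.78, a change of -0.87 ± 0.04 (adjusted p = 3.87e-17), and of 12 reference genes 2 rose and 4 fell. GKN1, which encodes AMP-18, was detected on 3 arrays at 2 h and 1 at 24 h, at readings of 4.51, 4.74 and 4.52 and 4.41, 4.31 and 4.37, and its difference of -0.22 ± 0.11 did not pass (adjusted p = 0.0783). CCKBR, a gastrin receptor proposed to bind AMP-18, had 1 probe, which was detected on 0 of the 6 arrays.

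The same time contrast could be read in the HaCaT cells given AMP-18, which share no array with the untreated ones. There 6141 probes were higher and 6449 lower at 24 h. Of the 6109 probes that rose without treatment, 5333 also rose with AMP-18, and of the 6275 that fell, 5584 also fell. Of the 2731 probes that changed over 2-fold, 2720 passed in the same direction. Of all tested probes, 7 passed in opposite directions. As a description over the 18928 probes, which are not independent, the 2 sets of log2 fold changes correlated with r = 0.97 and a slope of 1.01. The difference between the changes passed for 35 probes (0.185%), 16 with the more positive change without treatment and 19 with the more negative. These included genes of groups described above. ASNS fell by 1.83 untreated and by 2.52 with AMP-18 (adjusted p of the difference = 0.000229), and CDC45 by 1.59 and 2.00 (adjusted p = 0.0129). MSMO1 rose by 2.60 untreated and by 3.16 with AMP-18 (adjusted p = 0.00115), MVD by 2.82 and 3.57 (adjusted p = 0.037), and PLA2G10 by 4.90 and 5.51 (adjusted p = 0.0258). MX1, an interferon-induced antiviral gene, rose by 1.01 untreated and by 0.50 with AMP-18 (adjusted p = 0.0258). The count of 35 was unsteady, since it was 6 without replicate 2 of untreated HaCaT at 24 h and 120 without replicate 3, and leaving out 7 of the other 10 arrays also moved it by over 1.5 times.

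**Figure D4:**
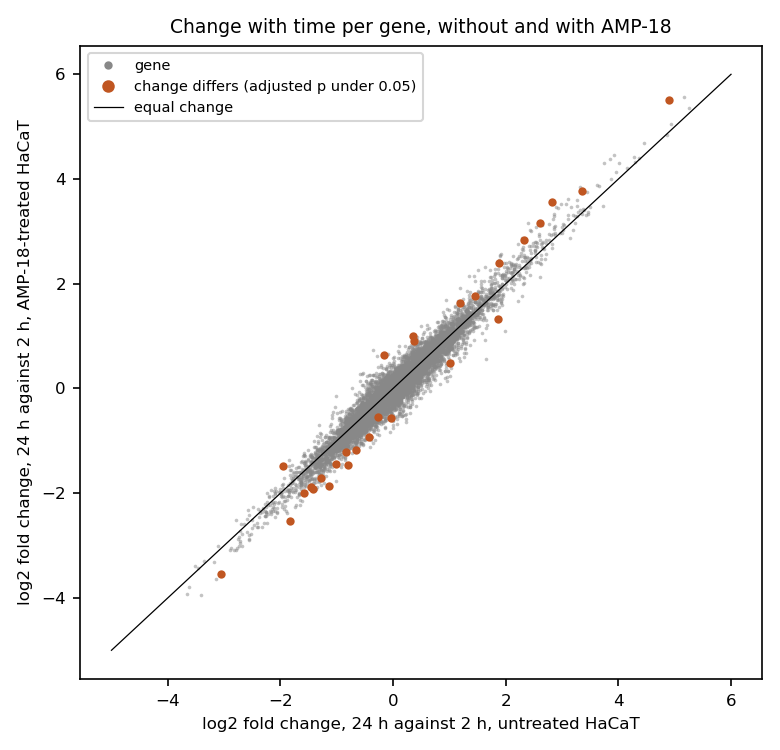
Log2 fold change between 24 h and 2 h of each of 11066 genes in untreated HaCaT (horizontal axis) and in AMP-18-treated HaCaT (vertical axis), 3 arrays per group. Grey dots are genes, orange dots are genes whose change differed between the 2 at an adjusted p under 0.05, and the line marks equal change. The dots follow the line over the whole range, with PLA2G10 at 4.90 and 5.51 near the upper end.

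Compared with untreated SCC-61 over the same interval, the change in HaCaT differed for many probes. SCC-61 had 4889 probes higher and 5762 lower at 24 h, 1068 of them by over 2-fold against 2731 in HaCaT. The test of the difference itself passed for 8352 of 18928 probes (44.1%), 4449 with the more positive and 3903 with the more negative change in HaCaT, and 1344 differed by over 2-fold. Both lines passed in the same direction for 7280 probes and in opposite directions for 1001. The probes were chosen for being detected in HaCaT, and the lines were grown in different media.

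Sterol synthesis genes had list medians of 1.96 in HaCaT and 1.83 in SCC-61, and 4 of 19 members had the more positive and 5 the more negative change in HaCaT. The amino acid and folding groups had medians of opposite sign in the 2 lines. In the ATF4 list the median was -0.65 in HaCaT and 0.52 in SCC-61, and 21 of 27 members had the more negative change in HaCaT. For tRNA synthetases these values were -0.82, 0.20 and 17 of 18, and for endoplasmic reticulum chaperones -0.65, 0.35 and 17 of 18. ASNS fell by 1.83 in HaCaT and rose by 1.78 in SCC-61, a difference of -3.61 ± 0.09 (adjusted p = 9.82e-23). MYC, which fell by 1.76 in HaCaT, gave -0.02 in SCC-61 (difference -1.74 ± 0.10, adjusted p = 1.79e-14). Of the 37 ribosome biogenesis genes, 36 fell in HaCaT and 34 in SCC-61, with medians of -1.53 and -0.89, and 32 of 37 had the more negative change in HaCaT. For G2/M genes 40 of 46 fell in SCC-61 and 0 rose, with a median of -0.44, and 41 had the more positive change in HaCaT, while for G1/S genes the medians were -0.92 and -0.96. CDKN1A rose by 2.19 in HaCaT and 0.33 in SCC-61 (difference 1.86 ± 0.10, adjusted p = 4.38e-15), and ALDOC by 4.86 and 0.24 (difference 4.63 ± 0.12, adjusted p = 5.11e-22).

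**Figure D5:**
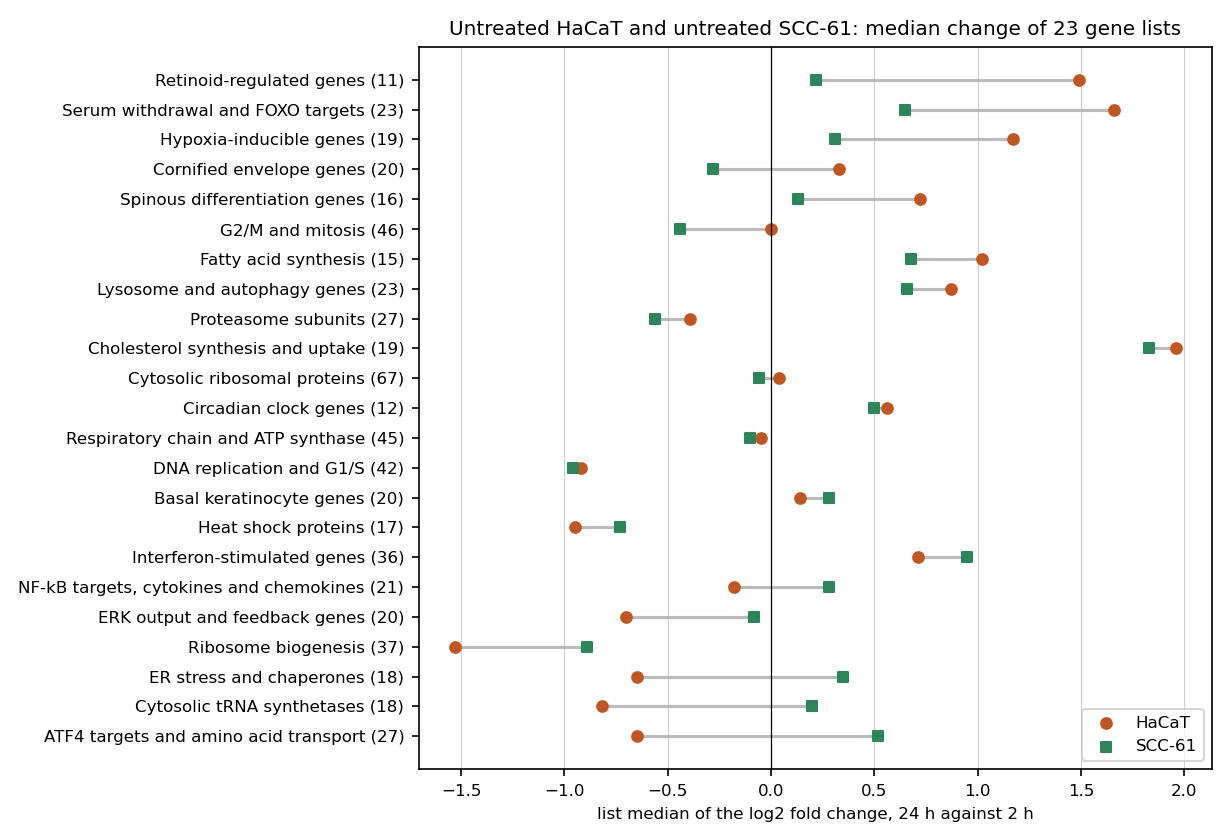
Median log2 fold change between 24 h and 2 h (horizontal axis) of 23 gene lists in untreated HaCaT (orange circles) and untreated SCC-61 (green squares), joined per list, with the number of measured members in brackets and lists ordered by the difference. The ATF4 list lies at -0.65 in HaCaT and 0.52 in SCC-61, and the serum withdrawal list at 1.66 and 0.65.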

How the data were processed

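Total RNA of 24 samples was hybridised to Illumina HumanHT-12 bead arrays, and the authors deposited log2 normalized intensities with a detection p-value for every probe. The submitters' processing notes name GenomeStudio 2011.1. The normalization method is not given in the sources used here, and the deposited log2 values share a common distribution across arrays, so they were used as deposited. Values are relative within an array.

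Probes with a detection p-value under 0.05 on all 3 arrays of either untreated HaCaT group were tested. Probe symbols came from the platform annotation, where 30113 probes carried 1 symbol, 8 several and 17202 none. A mean for each of the 8 groups was fitted over the 24 arrays with limma 3.58.1 (R 4.3.3), with moderated variances and an intensity trend, and p-values were adjusted by Benjamini-Hochberg over all tested probes at 0.05. The brightest tested probe stood for its gene. The script was tested on simulated data. Python 3.11.15 with pandas 2.3.3, NumPy 2.4.6 and matplotlib 3.10.9 was used for summaries and plots.

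The members and the gene lists were chosen with earlier results of these data known. Genes named were the 15 of largest rise and of largest fall among those detected on all 6 arrays whose groups did not overlap, the 5 of largest bound each way among those detected in 1 group only, up to 6 of largest change in each list, and a few taken whatever their values. MCM6, KIF20A, CCNB2, NOP2, CDK1, CCNB1, HSPA5, EREG, EGFR, CCND2 and MX1 were chosen after their values were seen. So were members named only to fill in the calls of their list. Other probes of CXCL8, SLC43A3, URB2, NRG1, SREBF1, ACSS2, P4HA2 and ALDH3B2 moved the same way by amounts over 1 apart from the one given. The alternatives covered the filter, the normalization, an added constant of 16, the variance model, the probe chosen per gene, the arrays fitted, a replicate block and leaving out each array. The number of arrays limits the precision. Unused columns of per-sample values numbered 0.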

Additional observations from a re-analysis of the deposited data

Results flagged for a closer look

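The change between 24 h and 2 h differed between untreated HaCaT and untreated SCC-61 for 8352 probes in limma's test of that difference. The same test between untreated and AMP-18-treated HaCaT passed for 35 probes. Among the genes described by name, 3 moved in opposite directions in the 2 lines by more than 1 on the log2 scale each way. SERPINB3, a squamous cell serpin, fell by 1.29 in HaCaT and rose by 2.01 in SCC-61, a difference of -3.30 ± 0.11. SAA1, an acute-phase protein, fell by 1.14 in HaCaT and rose by 1.12 in SCC-61, a difference of -2.27 ± 0.10. ASNS fell by 1.83 and rose by 1.78, a difference of -3.61 ± 0.09.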

How the results depend on the processing

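Across the filters on dim probes, normalizations, variance models, array weights, sets of arrays fitted and the t-test of the study's methods, the count of probes changed between 24 h and 2 h ranged from 10196 to 13272, those higher from 4894 to 6668, those lower from 5302 to 6697 and those over 2-fold from 1905 to 2756. Leaving out 1 array gave 11614 to 11780, 5741 to 5827, 5873 to 5992 and 2731 to 2754. The methods' t-test called 12041 probes at its own threshold and 11104 after Benjamini-Hochberg adjustment. The difference between the lines gave 7189 to 9440 probes, and 7712 to 8102 leaving out 1 array. All of these lie within 1.5 times the main count. The difference between untreated and AMP-18-treated HaCaT, 35 probes, gave 16 with only the arrays compared, 11 with no variance trend, 169 with array weights, and 6 to 120 leaving out 1 array. Of untreated HaCaT, leaving out replicates 1, 2 or 3 at 24 h gave 12, 6 and 120, and at 2 h 10, 12 and 14; of treated HaCaT, replicates 1 and 2 at 24 h gave 21 and 58, and replicate 2 at 2 h gave 14; the cause was not tested. The replicate numbers were not taken to pair samples, since the correlations of same-numbered deviations were -0.015, -0.021 and 0.001. With the replicate number as a block 12592 probes were called, 12145 of them shared with the main fit in the same direction. Of 5828 alternative values of 299 named genes, 0 reversed, 13 lost the threshold (7 genes, among them KRT14, EGFR, MKI67 and KRT18) 5 gained it and 70 moved in size. The median changed sign under some alternative in 8 of 48 gene lists, and in 0 of the 22 with a median beyond 0.5. The median of all genes was 0.07 with cyclic loess against 0.02. With 3 arrays a group and no record of separate cultures, handling and time cannot be told apart, and probes not detected at a time give bounds only.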

Other observations

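Some gene groups outside the account above also held members that changed in untreated HaCaT. Of 19 epidermal proteases and inhibitors, 7 rose and 6 fell. PRSS8, the channel-activating protease prostasin, read 8.21, 8.29 and 8.44 at 2 h and 10.20, 10.22 and 10.30 at 24 h, and rose by 1.93 ± 0.08 (adjusted p = 3.9e-19). KLK8, a kallikrein, rose by 1.14 ± 0.10 and SPINK6, a kallikrein inhibitor detected at 2 h only, was at least 1.9-fold lower. Of 18 Notch and WNT genes, 9 rose and 5 fell. The ligand WNT10A rose by 1.37 ± 0.07. WNT4, another ligand, and AXIN2, a target and brake of WNT signalling, were detected at 24 h only and were at least 2.21-fold and at least 1.3-fold higher, while the WNT antagonist DKK1 fell by 1.05 ± 0.05 and the related DKK3 by 1.13 ± 0.05.

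Of 22 NRF2 and glutathione genes, 10 rose and 9 fell. SRXN1, which repairs peroxiredoxins, fell by 1.34 ± 0.07 beside NQO1 and SLC7A11, and AKR1C2, a steroid-reducing enzyme, rose by 1.05 ± 0.07. The AKR1C genes are near-identical, and a probe may read more than 1 of them. Of 8 long noncoding and small RNA host genes, 5 rose and 2 fell. SNHG1 and SNHG12, hosts of small nucleolar RNAs, fell by 1.23 ± 0.07 and 1.31 ± 0.13, whereas SNHG5 and SNHG6 rose by 0.26 ± 0.06 and 0.31 ± 0.07. MMP12, the macrophage elastase, read 2.91, 3.88 and 3.47 at 2 h, when it was not detected, and 6.02, 5.99 and 6.04 at 24 h, and was at least 3.07-fold higher.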
